A study of Mus musculus with 6 samples.

Results

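In the cancer cells of mouse pancreatic tumours, 10 genes were followed, namely Mgp, Dcn, Fmo1, Fmo2, Gas1, Cdh13, Thsd7a, Wfdc2, Meis2 and Enpp2. They were picked from the 32285 genes of the count files because earlier work on these libraries had shown them among genes that separate the cancer cells and differ between libraries. Their levels in cancer cells and their differences between libraries are therefore descriptions and carry no test. The tumours grew in the pancreas of wild-type C57BL/6 mice, 6 to 8 weeks old, injected with KPC cells, 1 mouse pancreatic cancer line with an empty vector (the OE-Vector group) or made to overexpress Mlkl, the pseudokinase that executes necroptosis (the OE-MLKL group). Tumours were harvested 4 weeks after injection and their cells profiled in droplets with 3′ chemistry, in which a unique molecular identifier (UMI) counts each captured transcript once. The labels name 3 samples per group, and 4 matrices were analysed here, that of OE-Vector 1 and those of OE-MLKL 1, 2 and 3. The OE-Vector group therefore had 1 library, and no spread could be measured within it.

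The genes have unlike roles. Mgp encodes matrix Gla protein, a vitamin K-dependent inhibitor of calcification, and Dcn encodes decorin, a small leucine-rich proteoglycan that binds collagen and is a classical fibroblast product. Fmo1 and Fmo2 encode flavin-containing monooxygenases, which oxidise nitrogen and sulphur atoms of foreign compounds. Gas1 and Cdh13 encode proteins held at the cell surface by a lipid anchor, a co-receptor of Hedgehog signalling and T-cadherin, respectively. Thsd7a encodes a membrane protein with thrombospondin type 1 repeats, Wfdc2 a secreted WAP-domain protein made by many epithelia, and Meis2 a TALE-class homeobox transcription factor. Enpp2 encodes autotaxin, the secreted enzyme that makes lysophosphatidic acid.

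Cells were called cancer cells when they held at least 1 UMI of Gm49504, a long noncoding RNA, and at least 2 UMIs of the keratins Krt8 and Krt18 together. The gate held 2135 of 13489 cells of OE-Vector 1, and 5665 of 15739, 5159 of 18808 and 2628 of 15146 cells of OE-MLKL 1, 2 and 3. Total depth ranged from 150591289 to 169978362 UMIs per library, and pairs of libraries shared 55 to 89 cell barcodes. Gated cells were deep, with medians of 26966, 12246, 11961 and 21545.5 UMIs in the same order, so depth differed between libraries. They also carried markers of other cells to different degrees. Only 2.15%, 45.0%, 29.9% and 0.533% of gated cells lacked 3 or more markers of another class, so that OE-Vector 1 and OE-MLKL 3 stood apart from the other libraries. Levels are given as CPM, the UMIs of a gene per 1000000 UMIs of all genes in the summed cells. Summed over its 12 markers, the macrophage list had 417 to 926 CPM in gated cells and the fibroblast list 213 to 368. Mlkl itself had 16.3 CPM in gated cells of OE-Vector 1 against 8.69, 12.9 and 19.6 in OE-MLKL 1, 2 and 3. The libraries labelled OE-MLKL thus overlapped with the library labelled OE-Vector, and whether transcripts of the construct are captured by the assay was not tested.

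All 10 genes were found by identifier in the GENCODE vM21 annotation of GRCm38, and all are protein-coding. Fmo1 (chr1:162829561-162866610) and Fmo2 (chr1:162874317-162898726) lie next to each other on the minus strand with 7706 bases between them. Gas1 lies at chr13:60174405-60177365, Cdh13 at chr8:118283733-119324921, Thsd7a at chr6:12311610-12749410 and Mgp at chr6:136872435-136875823. Dcn lies at chr10:97479609-97518143, Wfdc2 at chr2:164562413-164568510, Meis2 at chr2:115863064-116065839 and Enpp2 at chr15:54838901-54952892. Gas1, Cdh13, Thsd7a and Enpp2 overlap annotated genes on the other strand, and whether the authors' counting used strand is not given in the sources used here. The 250 bases before the RefSeq start site of Gas1 and before the first of 2 for Fmo2 are shown because these genes moved with Enpp2 across cells, and because these stretches overlap no exon of a protein-coding gene, unlike that before the second Fmo2 start site, which overlaps 4. Capitals mark matches to a CCAAT box (CCAAT) and a GC box (GGGCGG), searched on both strands together with a TATA box (TATAAA) and an AP-1 site (TGANTCA), and sequences read 5′ to 3′ on the strand of the gene (GRCm38.p6, minus strand, chr1:162898759-162899008 and chr13:60177536-60177785).
Fmo2: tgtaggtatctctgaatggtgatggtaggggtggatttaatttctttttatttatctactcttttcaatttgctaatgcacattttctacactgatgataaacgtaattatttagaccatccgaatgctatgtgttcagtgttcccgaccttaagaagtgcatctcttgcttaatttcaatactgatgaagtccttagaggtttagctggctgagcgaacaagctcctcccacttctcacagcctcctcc
Gas1: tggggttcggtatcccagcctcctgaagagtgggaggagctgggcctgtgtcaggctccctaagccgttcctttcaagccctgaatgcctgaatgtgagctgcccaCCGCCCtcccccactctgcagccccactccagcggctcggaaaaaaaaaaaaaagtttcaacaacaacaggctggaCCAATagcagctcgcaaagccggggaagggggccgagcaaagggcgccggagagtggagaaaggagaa
The Gas1 stretch held a CCAAT box 68 to 64 bases and a GC box, read on the other strand, 144 to 139 bases before the start, and 58.8% of its bases were G or C. The Fmo2 stretch held none of the 4 motifs, with 39.6% G or C. Over 32851 such stretches, CCAAT was found in 33.8%, GGGCGG in 32.7%, TATAAA in 12.4% and TGANTCA in 6.75%, so the matches in Gas1 are common ones.

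Enpp2 was the most abundant of the 10 in gated cells of each library, although CPM compare genes only as 3′ tags. It had 3661 CPM in OE-Vector 1 against 1855, 2322 and 3337 in OE-MLKL 1, 2 and 3, and it was detected in 93.0% to 99.7% of gated cells. Gas1 had 454, 530, 469 and 550 CPM in the same order and Meis2 had 261, 373, 392 and 485, with detection in 93.9% to 97.9% and 96.5% to 99.1% of gated cells. These shares of cells with a UMI rest on median depths of 11961 to 26966 UMIs. In cells outside the gate with at least 3 markers of T or NK cells, of a median of 2520 to 3342 UMIs, 27.5% to 49.0% had a UMI of Enpp2, 6.13% to 9.85% of Gas1 and 2.67% to 7.22% of Meis2. Fmo1 had 224, 472, 420 and 253 CPM and Fmo2 132, 277, 245 and 102. Both monooxygenase genes were high in OE-MLKL 1 and 2 and low in the other libraries. Mgp had 243, 823, 494 and 290, Wfdc2 142, 292, 205 and 91.8, and Cdh13 102, 235, 207 and 199. Thsd7a had 37.3, 112, 74.7 and 75.8, and Dcn 29.6, 74.6, 58.5 and 47.5 CPM. OE-MLKL 1 was highest for 7 of the 10 genes, and Gas1 and Meis2 were highest in OE-MLKL 3. How many of all genes were highest in OE-MLKL 1 was not determined.

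**Figure D1:**
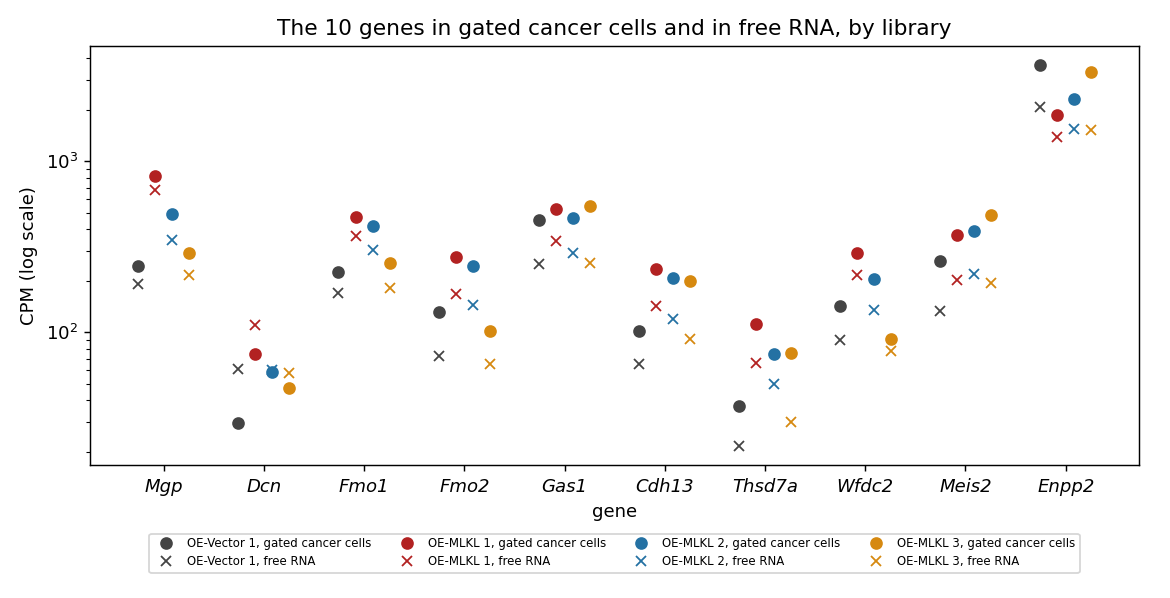
CPM (log axis) of the 10 genes in gated cancer cells (circles) and in free RNA, the barcodes of 1 to 100 UMIs (crosses), with 1 colour per library. Circles lie above the cross of the same library for each gene other than Dcn, whose 4 circles lie below their crosses.

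The ratio of the highest to the lowest library was widest for Mgp, at 3.39 (95% counting interval 3.33 to 3.44), Wfdc2, at 3.18 (3.09 to 3.28), and Thsd7a, at 3.02 (2.89 to 3.15). Fmo2 ranged 2.70-fold, Dcn 2.52-fold, Cdh13 2.31-fold, Fmo1 2.11-fold, Enpp2 1.97-fold, Meis2 1.86-fold and Gas1 1.21-fold. None of the 10, which had 15306 to 778241 UMIs, reached 4-fold. Of 16879 genes with at least 20 UMIs in gated cells 14.8% did, a set that includes genes of far lower counts. A range of 2-fold was reached by 7 of the 10, and by 19.3% of 10638 genes with at least 1000 UMIs. The median of the 10 was 2.41, against a median of 1.55 and a 90th percentile of 2.47 over those 10638 genes. Gas1 alone lay below the median gene, and its range does not bear out the name library-variable.

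Between the labelled groups, the library OE-Vector 1 lay below all 3 OE-MLKL libraries for 7 genes, a position that 33.8% of the 10638 genes shared. It lay above all of them for Enpp2, as it did for 16.1% of these genes, and within their range for Fmo2 and Wfdc2. In the fit of edgeR over all genes the difference on the log2 scale, OE-MLKL over OE-Vector, was 1.16 ± 0.42 (SE) for Thsd7a, 1.10 ± 0.69 for Mgp, 0.99 ± 0.35 for Cdh13 and 0.96 ± 0.41 for Dcn. It was 0.71 ± 0.52 for Fmo1, 0.62 ± 0.66 for Fmo2, 0.58 ± 0.32 for Meis2, 0.43 ± 0.70 for Wfdc2, 0.10 ± 0.33 for Gas1 and -0.66 ± 0.41 for Enpp2. The values lay above 0 for 9 of the 10 and for 8779 of 16649 other genes, with medians of 0.67 and 0.03. The fit left 2 residual degrees of freedom. Both come from the spread among OE-MLKL libraries, so the lone library is taken to vary as those do. The standard errors also draw on the spread of other genes, which edgeR shares between genes.

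Among genes outside the 10, edgeR's quasi-likelihood test called 1 of 16649 between the groups at a Benjamini-Hochberg adjusted p under 0.05, or 0.00601%, while 754 had an unadjusted p under 0.05 and DESeq2 called 73. The called gene was Hbb-bs, a haemoglobin gene of red blood cells, at 22.4 CPM in OE-Vector 1 against 0.111, 0.0967 and 0.204 in OE-MLKL 1, 2 and 3 (log2 difference -7.46 ± 0.43, edgeR adjusted p = 0.0261). The count rests on single libraries: it was 104 without OE-MLKL 1, 13 without OE-MLKL 2 and 270 without OE-MLKL 3.

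Depth within the gate moved with the levels. When the gated cells of each library were split into tertiles by total UMIs, 9 of the 10 genes had higher CPM in the shallowest than in the deepest tertile in all 4 libraries. The median ratio over libraries was 3.99 for Dcn, 1.92 for Enpp2, 1.79 for Thsd7a, 1.68 for Mgp, 1.61 for Gas1, 1.55 for Cdh13, 1.51 for Fmo1, 1.44 for Fmo2 and 1.28 for Meis2. Wfdc2 was the exception, with a ratio of 1.07 and a value of 0.996 in its lowest library. Enpp2, for example, fell from 2910 to 1389 CPM in OE-MLKL 1 and from 4869.5 to 2991 in OE-Vector 1. Deep droplets held less of these 9 transcripts per UMI. How many of all genes did the same was not determined, so whether this is particular to the 10 was not tested.

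Every library held gated cells of 10000 to 20000 UMIs, but depth was not equal within this band. OE-Vector 1 stayed deepest, its median cell holding 17071 UMIs, while the OE-MLKL libraries, by replicate number, had medians of 13618, 13343 and 16379. Differences between libraries in the band are thus not free of depth. Within it, OE-Vector 1 lay below all OE-MLKL libraries for 4 genes instead of 7. These were Mgp, with 387 against 876, 530 and 432, Cdh13, with 148 against 237, 211 and 260, Thsd7a, with 51.0 against 115, 78.4 and 101, and Meis2, with 326 against 378, 401 and 603 CPM. Enpp2 stayed above all, with 4931 against 1963, 2498 and 4653. How many of all genes held these positions in the band was not determined. Dcn, Fmo1, Fmo2, Gas1 and Wfdc2 lay within the OE-MLKL range, with Fmo1 at 302 against 500, 457 and 301. The order of the libraries changed for Gas1, Dcn, Cdh13 and Fmo1, for the last by under 1 CPM between OE-Vector 1 and OE-MLKL 3. The widest ranges in this band were those of Wfdc2 (2.62-fold), Enpp2 (2.51-fold) and Fmo2 (2.49-fold), ahead of Mgp (2.27-fold) and Thsd7a (2.25-fold), so that the ranking of the 10 by range depended on the depth of the cells compared.

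**Figure D2:**
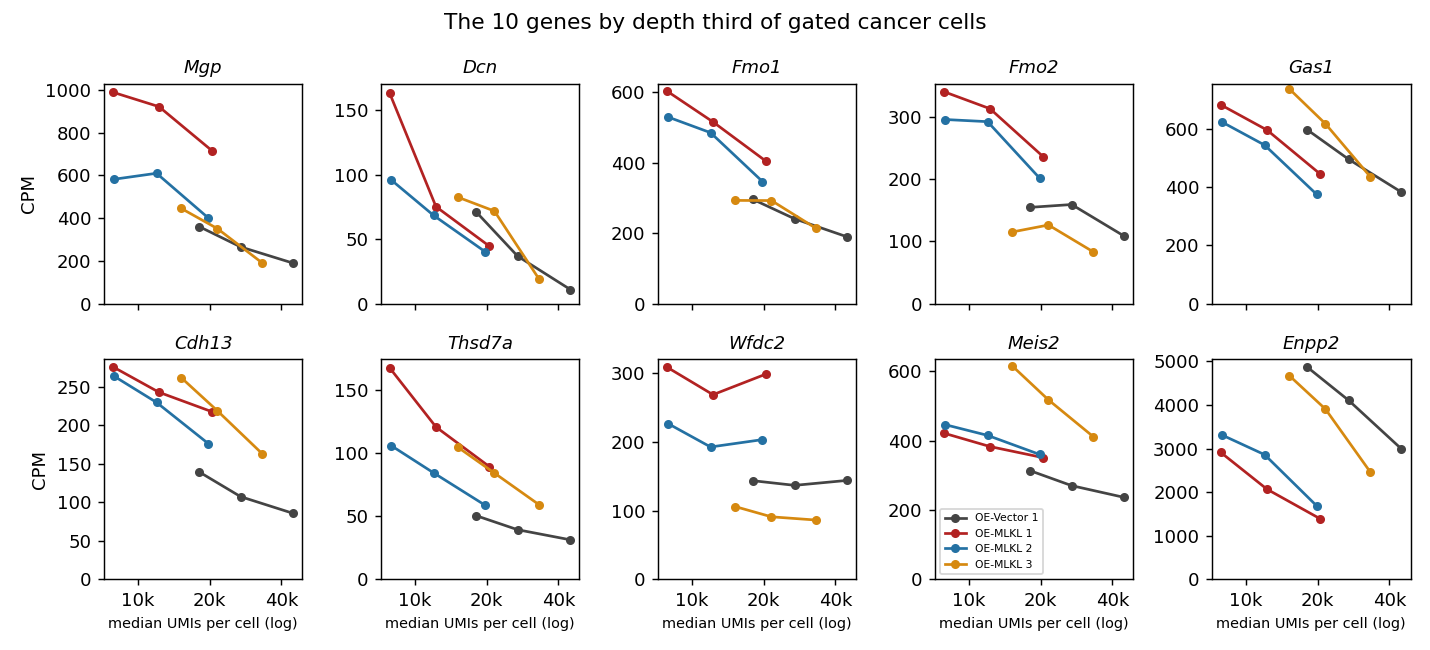
CPM of each gene (vertical axes, from 0) against the median UMIs per cell (log axis) of the shallowest, middle and deepest tertile of gated cells, with 1 line per library. For 9 genes the deepest tertile lies below the shallowest in all 4 libraries, and Wfdc2 is nearly flat in OE-Vector 1, at 144 in both outer tertiles.

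Outside the gate, cells were classed by marker lists, with at least 3 markers of 1 class. The fibroblast-marker class held 38, 113, 129 and 24 cells and the endothelial-marker class 32, 20, 47 and 28 cells in OE-Vector 1 followed by OE-MLKL 1, 2 and 3, so that these classes were small. The fibroblast-marker class was also unlike between libraries. Krt8 had 100, 276, 601 and 124 CPM in it and Col3a1 14588, 1758, 1637 and 14155 in the same order. Comparisons with it in OE-MLKL 1 and 2 thus rest on cells with more keratin and less collagen RNA. Dcn was highest in the fibroblast-marker class. It had 3979, 2348, 1665 and 4216 CPM in the fibroblast-marker class, against 29.6 to 74.6 in gated cells, a ratio of gated to fibroblast-marker cells of 0.00744 to 0.0351. Free RNA had 61.1, 111, 60.4 and 57.6 CPM of Dcn, above the gated cells of the same library in all 4. The cancer identity that the name of the group gives to Dcn is not borne out by these levels.

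Mgp was also higher in the fibroblast-marker class than in gated cells in all 4 libraries, with 717, 2622, 1617 and 1103 CPM, while macrophage-marker cells had 32.1, 171, 151 and 31.5. Cdh13 was highest in endothelial-marker cells, with 314, 298, 388 and 451 CPM against 102 to 235 in gated cells. T-cadherin is known from vascular endothelium. Fmo1 was higher in gated than in fibroblast-marker cells in all 4 libraries, by 1.20-fold to 3.15-fold, and Gas1 in 3 of 4, by a median of 1.20-fold. Fmo2 was higher in gated cells in 1 of 4 libraries, with 60.6, 300.1, 374 and 173 CPM in fibroblast-marker cells. Enpp2 had 1046, 1761, 1637 and 730 CPM in fibroblast-marker cells, below gated cells of the same library in all 4.

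Macrophage-marker, neutrophil-marker and T or NK-marker cells held less of each of the 10 genes than gated cells in all 4 libraries. Against cells outside the gate without a class, gated cells were higher in 2 libraries for Mgp and Dcn and in 3 for Wfdc2. For the other genes they were higher in all 4, for Enpp2 by 1.06-fold to 3.55-fold. Against cells with markers of more than 1 class, gated cells were higher in 1 library for Mgp and 0 for Dcn, and in all 4 for the others. Macrophage-marker cells had 303, 310, 499 and 261 CPM of Enpp2 and neutrophil-marker cells 414, 366, 577 and 456, several-fold below gated cells but far from 0. In free RNA Enpp2 had 2076, 1380, 1546 and 1535 CPM. The order of the libraries in free RNA was that of the gated cells for Mgp, with 193, 680, 347 and 216. Free RNA gives UMIs to cells that do not express a gene, and its part in the levels of the immune classes was not tested.

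**Figure D3:**
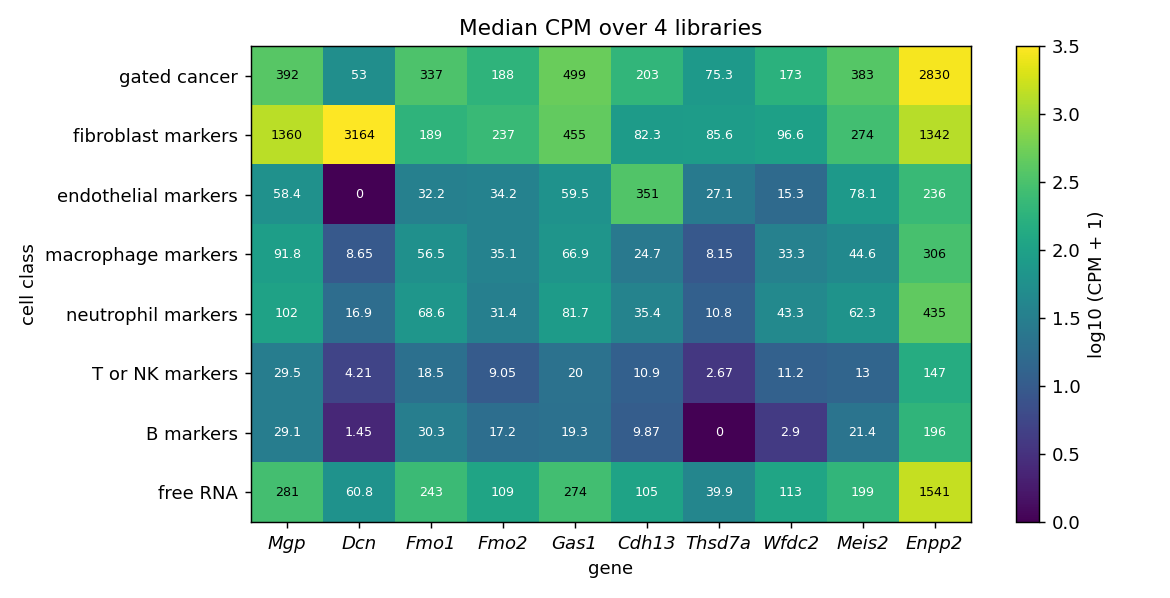
Median over the 4 libraries of CPM for each gene (columns) in gated cancer cells, in cells with markers of 6 other classes and in free RNA (rows), with the colour on a log10 scale. Dcn stands at 3164 in the fibroblast-marker class and 53.0 in gated cells, and Cdh13 at 351 in the endothelial-marker class and 203 in gated cells.

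The UMIs of the genes were spread unevenly over gated cells. In OE-Vector 1, then OE-MLKL 1, 2 and 3, 80% of all Dcn UMIs of the gate sat in 1.83%, 5.40%, 4.15% and 3.84% of its cells. For Mgp the cells that held 80% made up 19.1%, 26.1%, 23.1% and 23.2%, and for Fmo2 26.1%, 20.3%, 23.4% and 17.7%. For Meis2 they made up 53.8% to 60.9%. Dcn was thus carried by few gated cells and Meis2 by most.

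The gated cells with at least 5 Dcn UMIs numbered 59, 320, 217 and 117. Lum, the fibroblast proteoglycan lumican, had 228, 85.2, 89.9 and 102 CPM in them, against 1.10, 1.58, 2.63 and 2.12 in gated cells without a Dcn UMI. Gm49504 had 228, 289, 280 and 202 against 152, 290, 241 and 171 CPM, and was slightly lower in OE-MLKL 1 and higher in the other 3 libraries. Krt8 had 539, 314, 538 and 371 against 572, 442, 730 and 470, lower in all 4. Col3a1 had 752, 138, 315 and 438 against 69.5, 66.7, 73.3 and 102 CPM, far below the fibroblast-marker class of the same library. Pdgfra had 36.7, 46.9, 31.1 and 42.0 against 25.1, 25.3, 21.7 and 29.6 CPM. The Dcn-carrying cells thus held the transcripts of the gate together with more Lum and Col3a1 and slightly more Pdgfra than cells without Dcn. Doublets that escaped removal were not tested as their source.

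Gated cells were then thinned to 1000 UMIs each, which compares cells of unlike depth at the same number of transcripts. Enpp2 was found in 89.6%, 61.3%, 72.0% and 81.6% of cells, against 12.7% to 20.1% of macrophage-marker cells thinned alike. Gas1 was found in 36.8%, 39.5%, 36.6% and 41.1%, against 2.66% to 6.09% of macrophage-marker cells. Mgp was found in 16.4%, 37.5%, 25.7% and 20.3%, against 2.06% to 8.56%. Dcn was found in 2.35%, 5.08%, 4.09% and 2.82%, against 0.554% to 1.17%. For all 10 genes the share in gated cells was above that in macrophage-marker, neutrophil-marker and T or NK-marker cells of the same library, by at least 1.75-fold, the value of Dcn against neutrophil-marker cells. Before thinning Dcn was found in 11.5% to 18.8% of gated cells.

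Co-detection was assessed in 2132, 5664, 5155 and 2626 gated cells thinned to 1000 UMIs. The share of cells with both genes of a pair, divided by the product of the shares of each gene, had a median over libraries above 1 for 35 of the 45 pairs, and ranged from 0.80 to 1.33. The median of the 45 pairs was 1.07, so most pairs were close to what separate detection gives. Pearson's r across cells was above 0 in all 4 libraries for 23 pairs and below 0 in all 4 for 4 pairs. These cells share a library and were thinned to the same depth, and no test was made.

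Enpp2 was part of the pairs with the largest r, and it was also the most abundant of the 10. At 5000 UMIs its median was 19, 7, 10 and 17 UMIs per cell, against 2 for Gas1 in each library. The part of abundance in r was not tested. Thinned to 5000 UMIs, which kept 2127, 5559, 5065 and 2611 cells, r was 0.25, 0.36, 0.38 and 0.41 for Gas1 and Enpp2 and 0.29, 0.40, 0.43 and 0.30 for Fmo1 and Enpp2. It was 0.24, 0.41, 0.36 and 0.24 for Fmo2 and Enpp2 and 0.22, 0.34, 0.27 and 0.33 for Mgp and Enpp2. The neighbouring genes Fmo1 and Fmo2 had r of 0.21, 0.21, 0.21 and 0.24. Averaged over its partners, r was 0.21 for Enpp2, 0.15 for Gas1, 0.11 for Fmo1 and 0.05 for Dcn. Wfdc2 went the other way, with an average of -0.02 and with r of -0.04, -0.10, -0.12 and -0.09 against Fmo2. These correlations are weak, and thinning to 1000 UMIs gave lower ones, with a median over libraries of 0.18 for Gas1 and Enpp2.

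**Figure D4:**
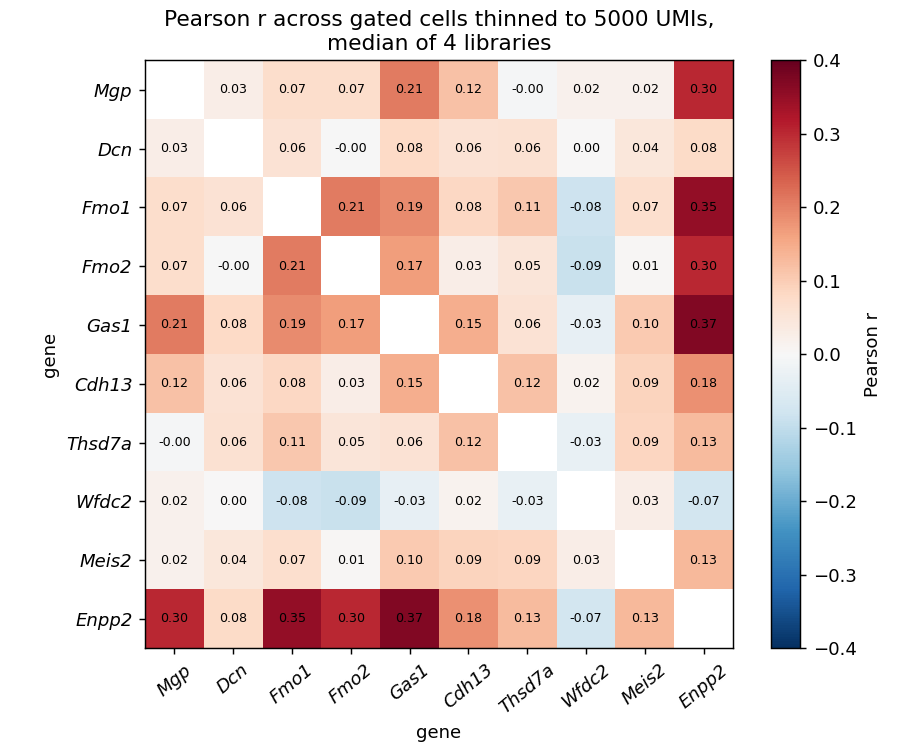
Pearson's r between the 10 genes across gated cells thinned to 5000 UMIs, as the median of 4 libraries, with red for values above 0 and blue for values below 0. The row of Enpp2 holds the largest values, up to 0.37 with Gas1, and the row of Wfdc2 the lowest, down to -0.09 with Fmo2.

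Of 5609 genes detected in at least 2% of gated cells of every library at 1000 UMIs, those most correlated with the number of the 10 genes detected were Cp, the copper-carrying ferroxidase ceruloplasmin, with a mean r of 0.21, Malat1, a nuclear noncoding RNA, with 0.21, and Fos, with 0.20. Zfp36l1 (0.17), Tmem176b (0.16), Junb (0.16), mt-Cytb (0.15), Egr1 (0.15), Fosb (0.13), Btg2 (0.13), mt-Co3 (0.13) and Foxq1 (0.13) followed. Fos, Junb, Egr1, Fosb and Btg2 are immediate early genes, which cells induce quickly after a stimulus. At the other end stood the ribosomal protein genes Rpl41 (-0.20), Rps2 (-0.19) and Rpsa (-0.18), the galectin gene Lgals1 (-0.18) and the glycolytic Gapdh (-0.17). At 5000 UMIs the single gene most like Enpp2 was Cp, with r of 0.59, 0.40, 0.51 and 0.60 in the 4 libraries. Cp was also first for Fmo1 (mean r 0.30), Cxcl15 for Fmo2 (0.25), Zfp36l1 for Gas1 (0.25), Thbs1 for Cdh13 (0.18), and Malat1 for Thsd7a (0.20) and Meis2 (0.22). Mgp was most like Tmsb4x (0.23), Dcn like Cpq (0.16) and Wfdc2 like Ifitm3 (0.11).

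Cells were called member-positive when at least 2 of the 10 genes had a UMI after thinning to 1000 UMIs, and member-negative when none had. At this depth Enpp2 was found in 61.3% to 89.6% of gated cells and any other of the 10 in at most 41.1%. The sets therefore lean on Enpp2. Wfdc2 hardly separated them, with log2 ratios of positive over negative cells of 0.17, 0.06, -0.14 and -0.14 in the 4 libraries. The positive share was 72.2% (exact 95% binomial interval 70.2 to 74.1) in OE-Vector 1 against 79.2% (78.1 to 80.2), 77.7% (76.5 to 78.8) and 76.2% (74.5 to 77.8) in OE-MLKL 1, 2 and 3. The mean of the OE-MLKL libraries was 77.7% ± 1.49 (SD, n = 3), 5.51 percentage points above the OE-Vector library. This difference was 15.7 points when 3 genes were needed, 2.38 at 2000 UMIs and 19.5 without cells with a UMI of 6 fibroblast markers. Under this last restriction the share was 43.75% of 48 cells in OE-Vector 1. It was 76.5%, 73.3% and 40.0% of 923, 753 and 70 cells in OE-MLKL 1, 2 and 3, so that OE-MLKL 3 lay below OE-Vector 1. The difference turned to -9.76 points without cells that held 3 or more markers of another class. That restriction left 46 gated cells in OE-Vector 1 and 14 in OE-MLKL 3. Intervals cover counting error only. In cells of 10000 to 20000 UMIs the shares were 78.2%, 77.7%, 78.0% and 86.4%, and OE-Vector 1 was within the OE-MLKL range. Negative cells were few, with 90, 318, 324 and 172 cells, and the median cell had 2, 3, 3 and 3 of the 10 genes.

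Which other genes differed between positive and negative cells was tested within libraries, on UMIs summed per library and cell set, with the library as a block. Of 14820 genes outside the 10, 2476 (16.7%) were higher and 2615 (17.6%) lower in positive cells (edgeR quasi-likelihood test, Benjamini-Hochberg adjusted p under 0.05). Without TMM scaling 63.2% instead of 48.7% of the calls were higher. Negative cells were deeper, with medians of 38308, 14963.5, 16287.5 and 27623.5 UMIs against 25661, 11700, 11446 and 20578, and in cells of 10000 to 20000 UMIs, with 16, 169, 166 and 24 negative cells, 318 genes were called, 142 higher and 176 lower. Leaving out OE-MLKL 2 gave 3155 calls. The cell sets thus differed in depth, and the part of depth in the larger count was not tested beyond this band.

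The largest rises among genes called and moved alike in all 4 libraries, at a mean of at least 10 CPM, were those of Gm5678 (log2 difference 2.63 ± 0.23 SE), Cxcl15, a mouse chemokine (2.32 ± 0.16), the homeobox gene Meox1 (2.31 ± 0.18), Ahsg, the secreted calcification inhibitor fetuin-A (2.29 ± 0.14), Ecrg4 (2.18 ± 0.13) and F5, coagulation factor V (2.09 ± 0.12). Cxcl15 had 352, 94.5, 126 and 268 CPM in positive and 43.7, 27.7, 25.3 and 49.5 in negative cells, with no overlap. Ahsg had 128, 91.2, 102 and 104 in positive and 16.6, 15.7, 26.6 and 22.1 in negative cells. The largest falls under the same limits were those of Ndufa4l2 (-2.78 ± 0.28), Klra4 (-2.57 ± 0.15), Slc25a48 (-2.41 ± 0.25), Trib3 (-2.38 ± 0.27), Fam111a (-2.24 ± 0.15) and Krt19 (-2.20 ± 0.09). Krt19, a keratin of ductal epithelium, had 64.3, 23.4, 71.5 and 87.6 CPM in negative and 12.6, 6.51, 15.3 and 21.9 in positive cells. Adjusted p-values of the 12 genes by edgeR lay between 5.85e-07 and 9.38e-05. Klra4 belongs to a family of near-identical receptor genes, among which reads can be split.

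Proliferation genes were lower in positive cells. All 15 tested cell cycle genes fell, with a median of -1.42 against 0.02 over all genes, among them Mki67 (-1.44 ± 0.12), Birc5 (-1.52 ± 0.09) and Pcna (-0.92 ± 0.07). Summed over the list, positive cells had 1222, 435, 830 and 853 CPM and negative cells 2079, 1061, 2131 and 2218. In cells of 10000 to 20000 UMIs, 12 of the 15 were called lower, with a median of -1.89. Hypoxia genes showed the same direction, with 9 of 10 lower, a median of -1.27, and Adm, encoding adrenomedullin, at -2.32 ± 0.25, the glycolytic Pgk1 at -1.29 ± 0.06 and the oxygen-sensing hydroxylase Egln3 at -1.30 ± 0.07. In the depth band 7 of the 10 were called lower, with a median of -1.47.

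Matrix genes were higher. Of 7 tested small leucine-rich proteoglycans other than Dcn, 6 rose and none fell, with a median of 0.99, led by Lum (2.94 ± 0.23) and including Bgn, biglycan (0.87 ± 0.06), and without OE-MLKL 2 the count was 3. Bgn had 235, 147, 222 and 281 CPM in positive and 116, 80.1, 115 and 144 in negative cells. Of 11 collagen genes 7 rose, among them the basement membrane genes Col4a2 (1.03 ± 0.10) and Col18a1 (0.96 ± 0.09), and Col6a3 fell (-1.91 ± 0.18). Of 11 fibroblast markers, which share 4 genes with the collagen list and Lum with the proteoglycans, 6 rose and 1 fell, with summed levels of 367, 230, 272 and 413 in positive and 172, 147, 148 and 213 in negative cells. In the depth band 1 proteoglycan, 1 collagen and 2 fibroblast markers were called, all higher, while the medians of these lists were 1.05, 0.57 and 0.42, against 0.99, 0.56 and 0.61 over all depths. In gated cells without a UMI of 6 fibroblast markers, 50 to 923 per library, 4 of 6 collagens still tested were called higher, with a median of 1.03, and 1 of 3 proteoglycans, with a median of 1.23. Negative cells numbered 13, 70, 65 and 22 under this restriction. In gated cells without 3 or more markers of another class, 3 of 8 collagens were called higher and 1 lower, with a median of 0.45. Of 3 proteoglycans 0 were called there, with a median of 0.64. Negative cells numbered 1, 135, 67 and 3 there, so OE-Vector 1 and OE-MLKL 3 rested on very few cells.

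Macrophage transcripts moved the other way, with 11 of 12 markers lower in positive cells, a median of -1.16, and C1qa, a complement subunit of macrophages, at -1.39 ± 0.22. Their summed level was 507, 397, 443 and 892 CPM in positive and 1824, 618, 773 and 1278 in negative cells. With a stricter gate, of at least 2 Gm49504 and 5 keratin UMIs, 1 marker rose, none fell and the median was -0.00285. In the depth band none was called, with a median of -1.78. Of the genes that set the gate, given here as a description, Gm49504 had 164, 302, 263 and 181 CPM in positive and 92.8, 232, 167 and 125 in negative cells. Krt8 and Krt18 summed to 1291, 956, 1227 and 791 CPM in positive and 1120, 1181, 1631 and 974 in negative cells. These keratins were thus lower in positive cells of OE-MLKL 1, 2 and 3 and higher in those of OE-Vector 1. Negative cells thus held more macrophage RNA under the main gate. Under the stricter gate 15 of 15 cell cycle genes were called lower, with a median of -1.34, and 9 of 10 hypoxia genes, with a median of -1.19.

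Relatives of the 10 genes were examined by family. The flavin-containing monooxygenase gene Fmo4 rose (1.98 ± 0.12), with 17.1, 36.1, 35.2 and 16.6 CPM in positive and 4.56, 9.68, 7.59 and 3.27 in negative cells and no overlap. The TALE homeobox list, the partners of Meis2, had 6 of 9 genes higher and none lower, with a median of 0.32, including Meis1 (0.32 ± 0.07) and Pbx3 (0.58 ± 0.09). Without OE-MLKL 2 the count was 3, and in the depth band it was 0 with a median of 0.31. In the Hedgehog pathway, in which Gas1 acts, 4 of 8 tested genes rose and none fell. Among them were the receptor gene Ptch1 (0.39 ± 0.09), the transducer Smo (0.41 ± 0.08) and the co-receptor Cdon (0.41 ± 0.13). None of these 3 was called in the depth band, where the values were 0.39 ± 0.26, 0.57 ± 0.17 and 0.60 ± 0.36. Of 6 lysophosphatidic acid receptors and phosphatases, downstream of Enpp2, the receptor Lpar1 (0.65 ± 0.22) and the phosphatase Plpp3 (0.96 ± 0.15) rose. With any 1 library left out 1 gene of this list rose, and in the depth band none was called, with 0.36 ± 0.50 for Lpar1 and 0.81 ± 0.30 for Plpp3.

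Among the other families, Thbs1, thrombospondin 1, rose (0.81 ± 0.10) with Thbs3 while Thbs2 fell, out of 5 thrombospondin-repeat genes. Slpi, a WAP-domain protease inhibitor, rose (0.37 ± 0.12) and Wfdc17 fell, out of 4 WAP genes with a median of -0.19. Bmp4, a growth factor that matrix Gla protein binds, was the 1 gene of 7 called in the vitamin K and BMP list (0.57 ± 0.07), whose median was -0.09. Of 6 cadherins, Cdh1 and Cdh17 fell. Cdh15 was called higher, which rested on OE-Vector 1 and OE-MLKL 3, with 14.6 and 3.69 CPM in positive against 1.34 and 0 in negative cells, while it had at most 0.506 CPM in either cell set of OE-MLKL 1 and 2 and was lower in positive cells of OE-MLKL 2. Of 8 mesenchymal transition genes 4 rose and 2, Vim and S100a4, fell, with a median of 0.13. Without OE-MLKL 2 only 1 rose and 1 fell, without OE-MLKL 3 it was 2 and 2, and in the depth band none was called, with a median of 0.19. Over all genes 16.7% were called higher and 17.6% lower. The counts of the WAP list, of the vitamin K and BMP list and of most small lists that follow lie near these shares. They thus say nothing particular of those lists. Of 10 T or NK cell markers 3 fell, of 12 neutrophil markers 1, of 5 B cell markers 1 and none of these lists had a rise, while 1 rose and 1 fell in the endothelial (8 tested) and dendritic (7 tested) lists. Of 14 epithelial cancer markers 3 rose and 4 fell, and of 12 interferon genes none rose and 2 fell, with a median of -0.09. The direction of the interferon list rested on OE-MLKL 1, without which 6 genes rose, 1 fell and the median was 0.25. Without OE-Vector 1, 4 fell and none rose, without OE-MLKL 2 or OE-MLKL 3 it was 1 and none, and in the depth band none was called, with a median of -0.49.

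**Figure D5:**
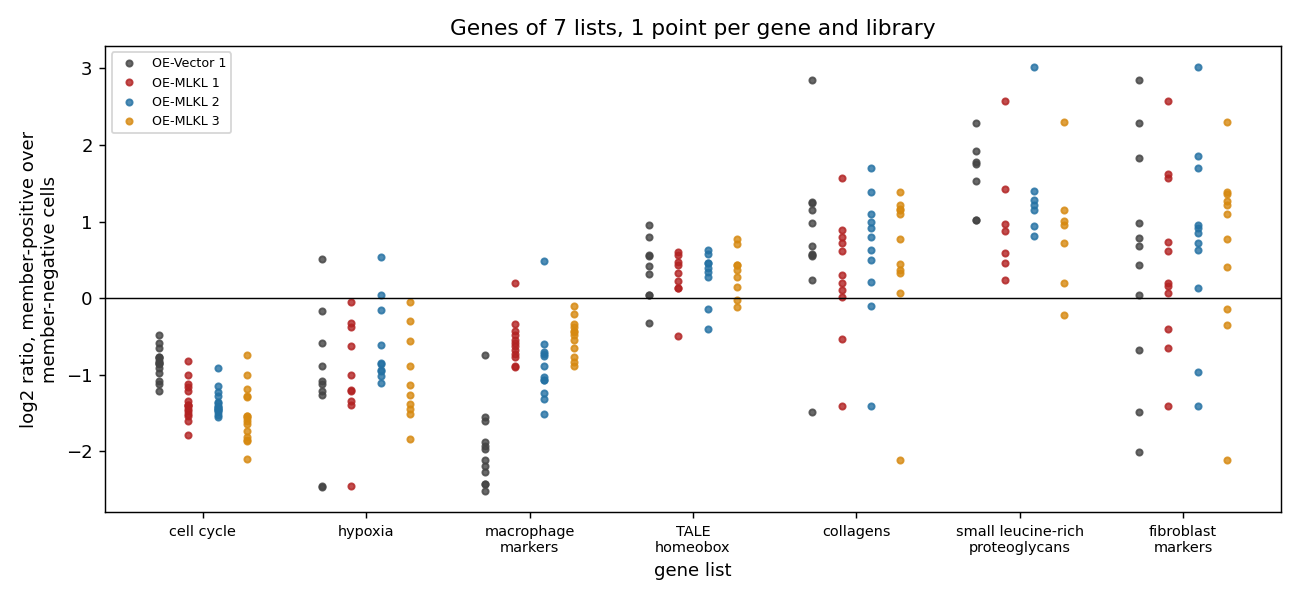
Log2 ratio of member-positive over member-negative gated cells (vertical axis) for the genes of 7 lists, with 1 point per gene and library and 1 colour per library. Points of the cell cycle list lie below 0 in all 4 libraries, while most points of the collagen and proteoglycan lists lie above 0 and macrophage markers are lowest in OE-Vector 1.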

How the data were processed

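The authors deposited unfiltered raw UMI counts per gene and barcode, made with Cell Ranger (2.1.1 on mm10 in the submitters' processing notes, 7.1.0 in the file headers, 3.1.0 in the methods), with no normalisation. Cells had at least 500 UMIs, more than 200 genes, under 10% mitochondrial and at most 5% haemoglobin UMIs, and doublets were removed per library at 0.8% per 1000 cells. The 10 genes and all lists were chosen with earlier results of these data known. UMIs were summed per library and class and given as CPM. Library ranges used a floor of 3 UMIs.

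Sums were tested with edgeR 4.0.16 (TMM, filterByExpr with a minimum count of 10, quasi-likelihood test, Benjamini-Hochberg at 0.05), with DESeq2 1.42.0 as an alternative, on R 4.3.3 (limma 3.58.1). Counting and thinning used numpy 2.4.6 and scipy 1.17.1 on Python 3.11.15. The fits were tested on simulated data. Genes named outside the 10 were the 12 most correlated with the number of the 10 genes detected, the 6 largest rises and 6 largest falls moved alike in all libraries at a mean of at least 10 CPM, and called genes of the lists, of which some are not reported here. Further genes, namely Hbb-bs, the single genes most like each of the 10 and genes of the gate, were named after their values were seen. Tumours came from separate mice per the methods.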

Additional observations from a re-analysis of the deposited data

Results flagged for a closer look

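Isg15, an interferon-induced gene, had a log2 ratio of member-positive over member-negative cells of 0.15 in OE-Vector 1 and of -1.02, -0.49 and -0.59 in OE-MLKL 1, 2 and 3, so that the library labelled OE-Vector went the opposite way from the 3 others. The OE-Vector 1 value rested on 90 negative cells. Irf7, Bst2 and Usp18 of the interferon list split in the same way, and how many of all genes did so was not determined. The difference between the groups was not tested. Over all 4 libraries Isg15 was called lower in positive cells (log2 difference -0.56 ± 0.16 SE, edgeR quasi-likelihood test, Benjamini-Hochberg adjusted p = 0.0172). In gated cells of 10000 to 20000 UMIs, and without gated cells with a UMI of 6 fibroblast markers, none of the 12 interferon genes, Isg15 among them, was called, and in the depth range the log2 difference of Isg15 was -1.14 ± 0.28 (edgeR adjusted p = 0.0658).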

How the results depend on the processing

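No paired analysis was possible because the groups with matrices share only replicate number 1, so no fit with the replicate number as a block was made. In the comparison of groups, 1 gene was called, against 73 with DESeq2, 0 with library size alone, 184 without gated cells that held 3 or more markers of another class, 0 without cells with a UMI of 6 fibroblast markers, 0 in cells of 10000 to 20000 UMIs (an alternative chosen after seeing the data) and 13 to 270 with 1 OE-MLKL library left out. The count of 5091 genes called between positive and negative cells was 467, 922 and 318 under the last 3 restrictions on cells and 3155 to 4676 with 1 library left out. The first 2 of these restrictions left 14 to 2548 and 50 to 923 gated cells per library. Among them were 1 to 135 and 13 to 70 member-negative cells per library. The difference in positive share of 5.51 percentage points was 4.01 with a stricter gate, -9.76 without cells with markers of another class, 19.5 without cells with fibroblast UMIs, 15.7 when 3 genes were needed, 2.38 at 2000 UMIs, 2.50 in the depth band and 4.76 to 6.25 with 1 OE-MLKL library left out. The median range of 2.41 was 2.53 with doublets kept, 2.20 with the stricter gate, 2.78 and 3.51 without the 2 kinds of cells, and 2.05 in the depth band. The median co-detection ratio of 1.07 was 1.14 without cells with fibroblast UMIs. The cause of these shifts was not tested. Under these alternatives 189 values of the 12 named genes kept direction and call, and Trib3 lost its call in the depth band (log2 difference -1.93, edgeR adjusted p = 0.0593).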
